A study of Homo sapiens with 6 samples.

Results

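The genes described here encode 3 subunits of the oligosaccharyltransferase (RPN2, DDOST and DAD1) and 2 subunits of the dolichol-phosphate-mannose synthase (DPM1 and DPM3). They were taken as every probe set whose RefSeq accession belongs to one of these symbols, which gave 6 probe sets for the 5 genes among 1259 probe sets and 927 named genes on the array. The 5 genes were selected on their levels and on their difference between the groups on these same arrays, which were known when they were chosen, so those values are given as a description, without a test. The arrays come from HCT116, a colorectal cancer cell line with microsatellite instability, made into a double stable transfectant in which doxycycline induces a transgene. By the sample titles that gene is wild-type ACVR2, an activin receptor, although the source name mentions inducible TGFBR2, ACVR2 and AIM2 in 1 phrase for every sample. One group received doxycycline and activin A (+DOX, 3 arrays) and the other activin A without doxycycline (-DOX, 3 arrays). Activin A was thus common to all 6 arrays, and no array had doxycycline in cells without the inducible gene. Doses, times, clone number and separate cultures are not given in the labels, so the spread between replicates may be technical.

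The oligosaccharyltransferase sits in the membrane of the endoplasmic reticulum and moves a finished glycan from its lipid carrier, dolichol, onto asparagine residues of new proteins. Its catalytic subunit is STT3A or STT3B; RPN1, RPN2, DDOST and DAD1 belong to the shared core around it. The dolichol-phosphate-mannose synthase makes the mannose donor used inside the endoplasmic reticulum, where the later mannoses of the N-glycan precursor, glycosylphosphatidylinositol (GPI) anchors, O-mannose and C-mannose all draw on it. DPM1 is its catalytic subunit, DPM3 anchors DPM1 in the membrane and DPM2 stabilises DPM3. STT3A, STT3B and DPM2 were not analysed here.

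RefSeq promoter windows (GRCh38.p14) were matched for all 5 genes, and 4 are printed to show how different the sequences before the starts of these subunit genes are. Each line gives the 250 bases before the outermost annotated start, 5' to 3' on the gene's strand. Capitals mark matches on either strand to CCGGAAG, a core of ETS-family sites, to TGCGCA, a core of NRF1 sites, or to CCAAT, the NF-Y box.
DAD1, chr14:22589225-22589474, minus strand: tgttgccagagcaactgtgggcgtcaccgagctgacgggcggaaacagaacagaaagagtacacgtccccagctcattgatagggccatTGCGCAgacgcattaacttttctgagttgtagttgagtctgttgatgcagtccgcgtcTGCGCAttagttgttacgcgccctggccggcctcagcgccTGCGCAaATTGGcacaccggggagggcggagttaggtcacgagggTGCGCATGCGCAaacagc
DPM3, chr1:155140532-155140781, minus strand: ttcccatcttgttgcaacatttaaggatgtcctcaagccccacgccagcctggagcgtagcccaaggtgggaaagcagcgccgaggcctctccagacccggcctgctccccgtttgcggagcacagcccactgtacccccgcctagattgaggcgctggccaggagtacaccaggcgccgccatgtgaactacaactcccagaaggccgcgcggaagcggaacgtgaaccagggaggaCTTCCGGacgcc
DDOST, chr1:20661370-20661619, minus strand: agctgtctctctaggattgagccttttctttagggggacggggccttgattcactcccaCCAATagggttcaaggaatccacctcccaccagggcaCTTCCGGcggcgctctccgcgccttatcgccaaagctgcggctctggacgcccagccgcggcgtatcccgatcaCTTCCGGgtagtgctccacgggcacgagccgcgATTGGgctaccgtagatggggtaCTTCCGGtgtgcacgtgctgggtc
RPN2, chr20:37179080-37179329, plus strand: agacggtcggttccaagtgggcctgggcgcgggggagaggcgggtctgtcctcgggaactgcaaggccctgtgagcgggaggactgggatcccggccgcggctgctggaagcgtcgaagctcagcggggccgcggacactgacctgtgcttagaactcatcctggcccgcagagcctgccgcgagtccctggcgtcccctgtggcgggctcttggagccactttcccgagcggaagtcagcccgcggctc
DAD1 holds the NRF1 letters at 5 places, beginning 161, 103, 63, 18 and 12 bases before its start, the last 2 directly adjoining, and a CCAAT box beginning 56 bases before it. DPM3 holds 1 ETS match, 12 bases before its start. DDOST holds 3 ETS matches, 154, 80 and 24 bases before its start, and 2 CCAAT boxes, 191 and 47 bases before it. The windows of RPN2 and of the outermost DPM1 start hold no match to these letters; the window of a further annotated DPM1 start holds 1 ETS match. Among 35116 promoter windows of the same length, 8.52% hold the ETS letters, 6.89% the NRF1 letters and 32.0% a CCAAT box. The endoplasmic reticulum stress element, searched on both strands as CCAAT, any 9 bases and CCACG (so that it contains a CCAAT box), is in 0.0740% of windows and in none of the 5 genes' windows. A match describes letters, not a bound site.

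The arrays were alike in overall level, with medians between 7.61 and 7.65 log2 units and upper quartiles between 9.21 and 9.38. The deposited values had already been normalized with RMA, so this likeness is no check of the arrays. Replicate 3 of the -DOX group stood apart: its correlations with the other 5 arrays across probe sets were 0.982 to 0.991, against 0.995 to 0.999 among those 5. The differences below are also given without it. The probe set for ACVR2A, the gene to be induced, averaged 8.08 ± 0.07 on +DOX arrays and 8.34 ± 0.32 on -DOX arrays (SD, n = 3 each), a difference of -0.26 (SE 0.16; limma) that was -0.08 without -DOX replicate 3, where it read 8.70. This does not settle the labels because its probes may lie outside the transgene. The probe set also ends in s_at, which in Affymetrix naming marks probes shared by several transcripts, so its values may not be those of ACVR2A alone. Of the colon epithelium markers MUC2 was measured, at a mean of 7.28 and so below the array medians; 4 markers of endothelium, fibroblasts and leukocytes were measured, at means of at most 7.10. The other epithelial markers were not analysed here, so the labelled cell type was not checked by its defining genes.

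RPN2, ribophorin II, a core subunit of the oligosaccharyltransferase, read 13.05, 12.99 and 13.03 log2 units on +DOX replicates 1, 2 and 3, against 12.97, 12.85 and 13.25 on -DOX replicates 1, 2 and 3. Its only probe set ends in s_at, which in Affymetrix naming marks probes shared by several transcripts, so its values may not be those of RPN2 alone. The -DOX array that stands apart was the highest of the 6 and -DOX replicate 2 the lowest, so the groups overlapped. The means were 13.02 ± 0.03 on +DOX arrays and 13.02 ± 0.20 on -DOX arrays (SD, n = 3 each). The difference, +DOX minus -DOX, was -0.0018 (SE 0.10; 95% interval -0.26 to 0.26) and became 0.11 (SE 0.05) without -DOX replicate 3. Without that array every +DOX value lay above both -DOX values. With -DOX replicate 2, the lowest array, left out instead, the difference was -0.09. Whether fewer transcripts per cell or fewer expressing cells lie behind any lower value cannot be told apart in RNA from whole cultures, here and for the other genes.

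DDOST, the subunit also called OST48, was measured by 2 probe sets. The first read 12.63, 12.62 and 12.70 on +DOX arrays, against 12.62, 12.58 and 12.46 on -DOX arrays. The second, whose suffix in Affymetrix naming marks probes that may also match other transcripts, read 12.58, 12.57 and 12.67 on +DOX arrays, against 12.59, 12.53 and 12.51 on -DOX arrays. In either probe set the highest value was +DOX replicate 3, the lowest was -DOX replicate 3, and the groups overlapped. The differences were 0.09 (SE 0.05; 95% interval -0.04 to 0.23) and 0.06 (SE 0.05; 95% interval -0.05 to 0.18). Without -DOX replicate 3 they were 0.05 each, and a renewed quantile normalization of all 6 arrays turned the second to -0.0049. DDOST was the steadiest of the 5 genes, with a range over the 6 arrays of 0.24 and 0.16 log2 units in its probe sets.

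DAD1, the small subunit named defender against cell death, read 12.17, 12.26 and 12.24 on +DOX arrays, against 12.00, 12.18 and 11.04 on -DOX arrays. The +DOX arrays lay within 0.09 log2 units of each other, while -DOX arrays spanned 1.13 because of replicate 3. -DOX replicate 2 overlapped the +DOX values. The means were 12.22 ± 0.05 on +DOX arrays and 11.74 ± 0.61 on -DOX arrays (SD, n = 3 each), a difference of 0.49 (SE 0.30; 95% interval -0.26 to 1.23). Without -DOX replicate 3 the difference was 0.14 (SE 0.07), so that array supplied most of it.

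RPN1, ribophorin I, is the other core subunit with a probe set on this array; it is not among the 5 genes and comes from a list of the remaining subunits, of which 1 was measured. It read 11.85, 11.75 and 11.94 on +DOX arrays, against 11.90, 11.67 and 12.15 on -DOX arrays. Its difference was -0.06 (SE 0.13; limma, adjusted p = 0.884), and 0.06 without -DOX replicate 3 and 0.02 after a renewed quantile normalization. Like RPN2 it was highest on -DOX replicate 3 and lowest on -DOX replicate 2.

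DPM1, the catalytic subunit of the mannose donor synthase, read 11.33, 11.42 and 11.48 on +DOX arrays, against 11.33, 11.34 and 10.87 on -DOX arrays. The lowest +DOX array lay among the -DOX values, so the groups overlapped. The means were 11.41 ± 0.07 on +DOX arrays and 11.18 ± 0.27 on -DOX arrays (SD, n = 3 each), a difference of 0.23 (SE 0.14; 95% interval -0.11 to 0.57) that was 0.07 (SE 0.05) without -DOX replicate 3.

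DPM3, the membrane anchor of DPM1, read 10.45, 10.40 and 10.58 on +DOX arrays, against 10.27, 10.33 and 9.14 on -DOX arrays. All +DOX values lay above all -DOX values, with and without -DOX replicate 3. The means were 10.48 ± 0.09 on +DOX arrays and 9.91 ± 0.67 on -DOX arrays (SD, n = 3 each), and the difference of 0.57 (SE 0.33; 95% interval -0.26 to 1.39) was the largest of the 5 genes. It was 0.18 (SE 0.06) without that array. On -DOX replicate 3 DPM3 fell below that array's upper quartile of 9.29; every other value of the 6 probe sets was above the upper quartile of its array. Because probe sets differ in brightness, these levels do not order the subunits by abundance.

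**Figure D1:**
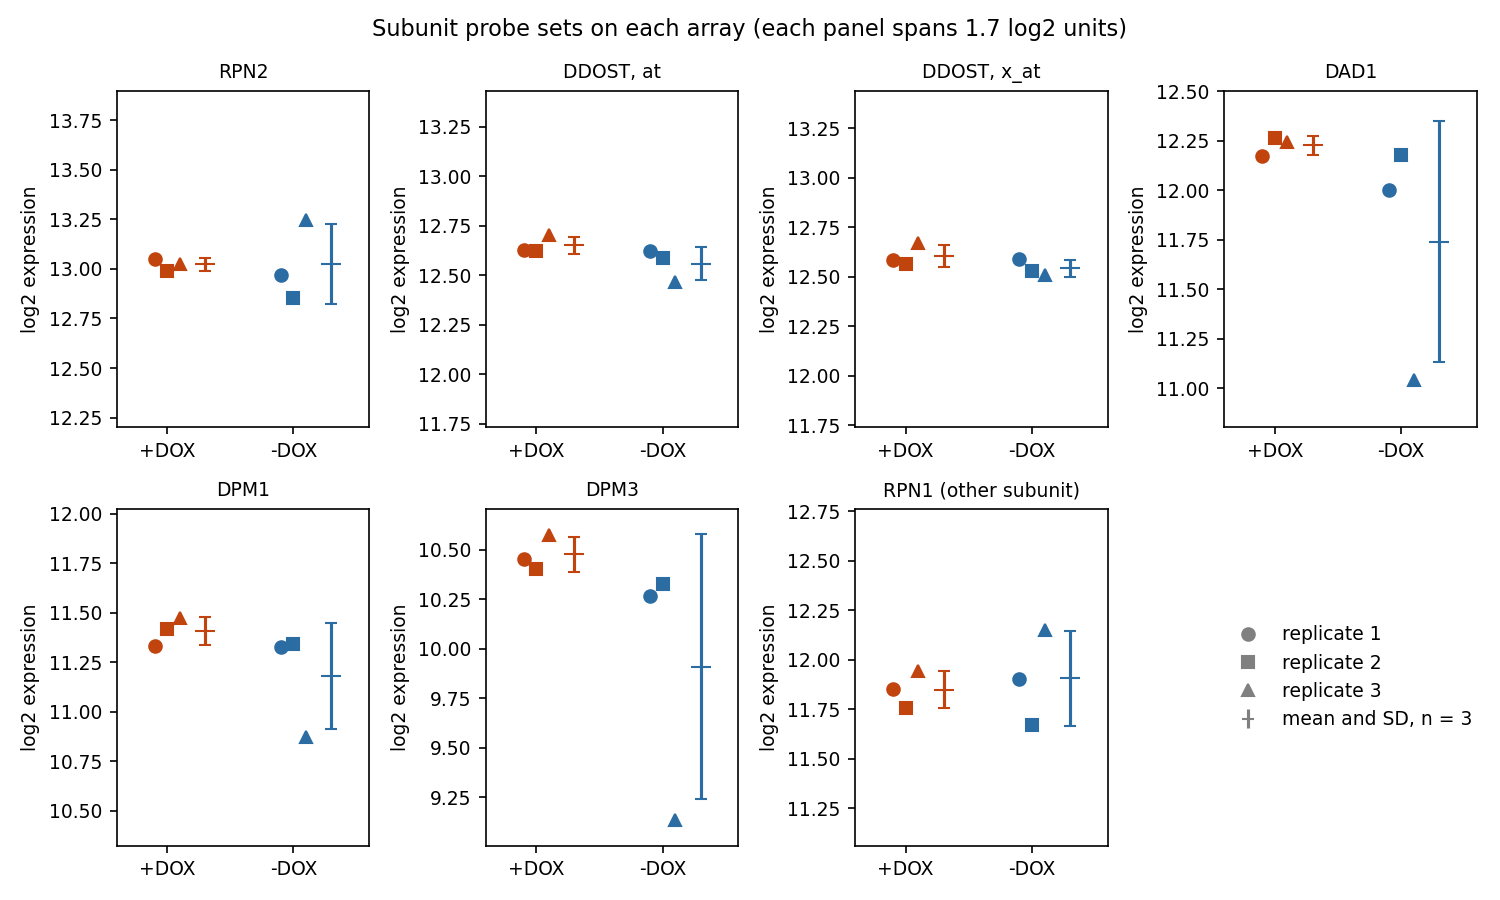
Log2 expression of each subunit probe set on each array, +DOX left of -DOX, with replicates as separate symbols and bars for the mean and SD (n = 3); every panel spans the same number of log2 units. DAD1 reads 11.04 and DPM3 9.14 on -DOX replicate 3, far under their other values, while RPN2 reads its highest value, 13.25, on that array.

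Over the whole table, 0 of 1259 probe sets (0.00%) passed an adjusted p of 0.05 (limma), and 98 (7.78%) had an unadjusted p under 0.05. Of the 5 genes, each represented by its brightest probe set, 4 had a higher +DOX mean and 1 a lower one, with a median difference of 0.23, while 45.4% of all probe sets had a higher +DOX mean and the median over all named genes was -0.01. Without -DOX replicate 3 all 5 had a higher +DOX mean with a median of 0.11, beside 38.2% of all probe sets and a median of -0.02 over all named genes. Groups that did not overlap, +DOX higher, were found for 1 of the 5 genes, DPM3, beside 7.55% of all probe sets, and without -DOX replicate 3 for RPN2 and DPM3, beside 8.98%. The choice of the genes used this comparison, so nothing is read from these shares.

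**Figure D2:**
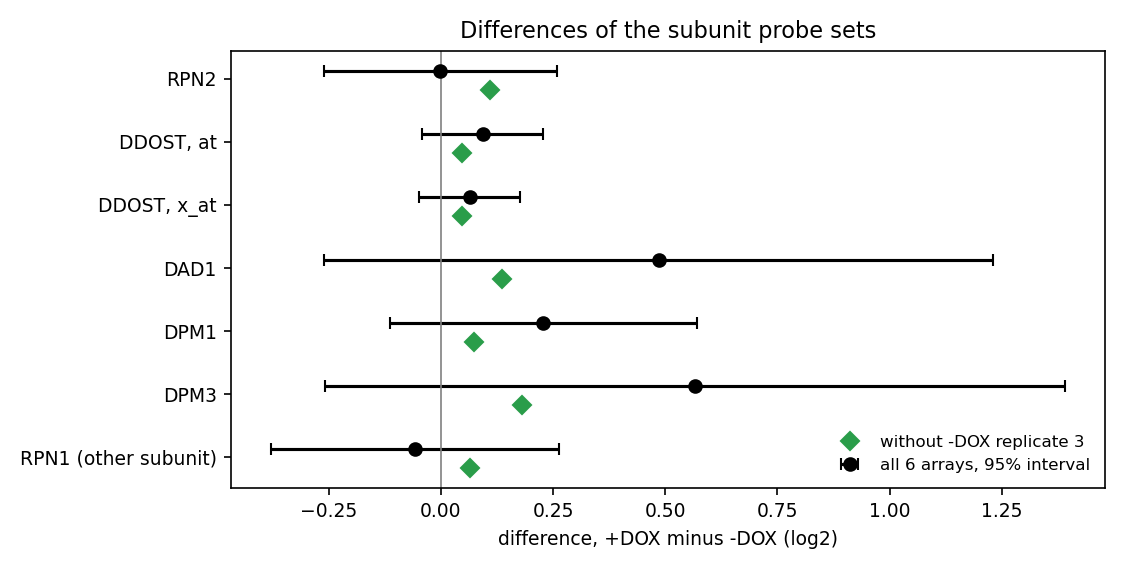
Difference of each subunit probe set, +DOX minus -DOX, in log2 units, as circles with 95% intervals over all 6 arrays and as diamonds without -DOX replicate 3. DAD1 is at 0.49 and DPM3 at 0.57 over all arrays, and at 0.14 and 0.18 without that array. The genes were selected on this difference, so the intervals describe spread and are not read as a test.

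The subunits of one enzyme did not move together on the array that stands apart. Relative to the mean of the other 5 arrays, -DOX replicate 3 was lower by 2.18-fold for DAD1 (-1.13 log2 units), the 7th lowest deviation of 1259 probe sets, but higher by 1.21-fold for RPN2 (0.27) and 1.25-fold for RPN1 (0.33). DDOST deviated by -0.17 and -0.08 in its probe sets. In the mannose donor synthase, DPM3 was 2.41-fold lower (-1.27), the 2nd lowest deviation of all, and DPM1 1.42-fold lower (-0.51). For the 5 genes this array entered the difference on which they were selected, so these ranks are a description only.

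Log2 differences between subunits on the same array restate these deviations pair by pair and add no separate evidence. DAD1 minus RPN2 was -2.21 on -DOX replicate 3, and on the other 5 arrays it stayed between -0.97 and -0.68, a shift of -1.40. DAD1 minus DDOST shifted by -0.96 and DDOST minus RPN2 by -0.44. DPM3 minus DPM1 was -1.74 on that array and between -1.06 and -0.88 on the others, a shift of -0.76. RPN1 minus RPN2 moved by 0.06, against a range of 0.16 among the other 5 arrays. DAD1 minus DPM3, across the enzymes, moved by 0.14. The pairs DAD1 with DPM3 and RPN1 with RPN2 thus kept closer to each other on that array than DAD1 to RPN2 or DPM3 to DPM1.

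**Figure D3:**
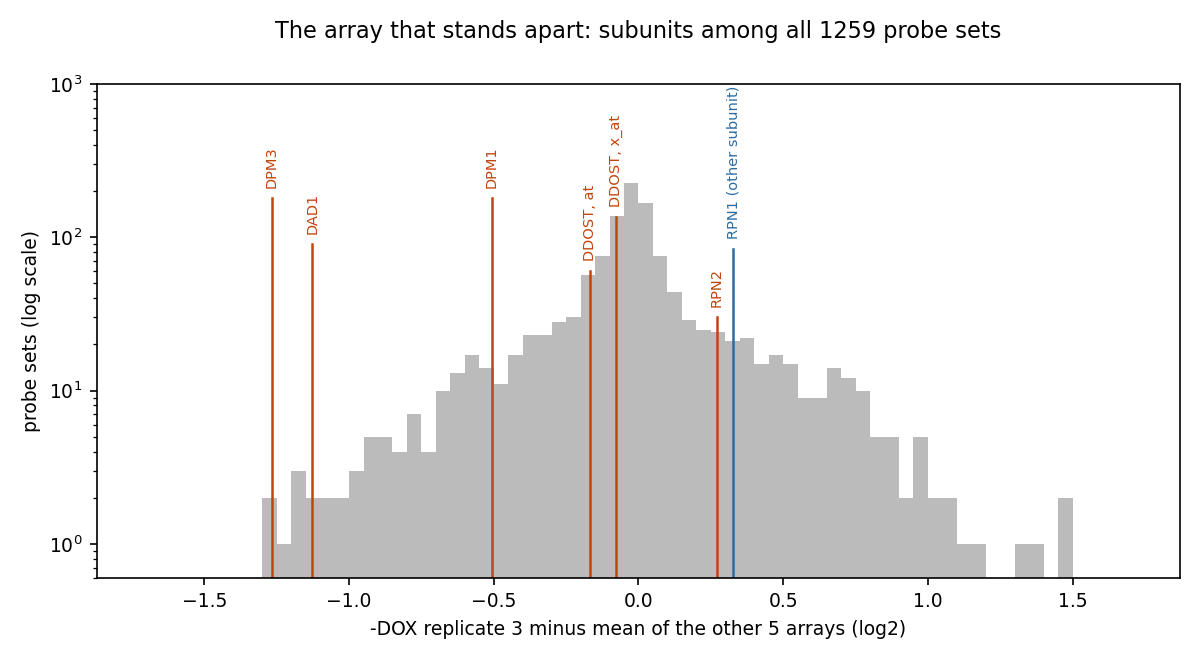
Histogram of the deviation of -DOX replicate 3 from the mean of the other 5 arrays (log2, horizontal axis) for 1259 probe sets, with their number on a log axis and vertical lines at the subunit probe sets, whose height carries no value. DPM3 (-1.27) and DAD1 (-1.13) lie at the low edge, DPM1 (-0.51) between, and RPN2 (0.27) and RPN1 (0.33) on the high side.

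Other genes moved on that array as well. Of 41 measured ribosomal protein genes (the housekeeping genes of the same list were not analysed here), 39 had their lowest value on -DOX replicate 3, beside 35.6% of all probe sets and 4 of the 5 subunit genes. RPN2 was highest there, as were 26.0% of all probe sets. For the ribosomal protein genes the median deviation was -0.30. Of these 41 genes 38 had a higher +DOX mean over all arrays, with 0 past the threshold and a median difference of 0.09, and 14 without that array, with a median of -0.01. Calnexin (CANX), a lectin chaperone, and UGGT2, a folding sensor, instead deviated by 0.63 each, and MAN1B1, the third measured gene of glycan trimming and folding, by -0.06. How much these deviations of -DOX replicate 3, which went both ways, weigh in the subunit differences was not tested. The differences left without that array are those given above.

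On the 5 arrays other than -DOX replicate 3, each of the 6 probe sets stayed within 0.12 to 0.31 log2 units. DPM3 ranged most (0.31), between 10.27 and 10.58, followed by DAD1 (0.26), between 12.00 and 12.26, and RPN2 (0.20). DPM1 (0.15) and the DDOST probe sets (0.12 and 0.14) ranged least. Within these 5 arrays -DOX replicate 1 held the lowest value of DAD1, DPM1 and DPM3, and -DOX replicate 2 that of RPN2 and DDOST.

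The genes nearest to each subunit gene were found by centring every gene on its mean over the 6 arrays and taking the root mean square difference, in log2 units, over 926 other named genes. DAD1 was nearest to ATP6V0E1, a subunit of the proton pump of acidic organelles (0.033), IFITM1, an interferon-induced membrane protein (0.033), and PIGP, a subunit of the enzyme that begins GPI anchors (0.047). DPM3 was nearest to PIGP (0.071), ATP6V0E1 (0.072) and S100A10, the annexin A2 partner (0.073). DPM3 ranked 9 of 926 in nearness to DAD1, and DAD1 ranked 4 of 926 in nearness to DPM3, at 0.087. RPN2 lay at 0.53 from DAD1, rank 755 as seen from DAD1. Over the 5 arrays without -DOX replicate 3, these ranks were 87 for DPM3 from DAD1, 46 for DAD1 from DPM3 and 415 for RPN2 from DAD1. The genes nearest to RPN2 were COG7, a Golgi tethering subunit (0.033), CHSY3, a chondroitin synthase (0.044), and GLB1, the lysosomal beta-galactosidase (0.054).

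DDOST was nearest to ST3GAL3, a sialyltransferase (0.023), and the ribosomal protein genes RPS3 (0.027) and RPL9 (0.028). DPM1 was nearest to PARK7, a redox-protective protein (0.043), and to RPL10A (0.044) and RPL31 (0.045), again ribosomal protein genes. These distances rest largely on -DOX replicate 3. Over the other 5 arrays 1 of the 3 nearest genes was shared for DAD1 (PIGP), 1 for DPM3 (ATP6V0E1) and 0 for RPN2, DDOST and DPM1.

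The pathway that feeds the oligosaccharyltransferase was described from lists of the remaining genes. In these lists 0 measured members passed the test in either direction. The lists share members, so their counts and medians are not separate. ALG3, ALG9 and ALG12 are counted both among genes that assemble the lipid-linked glycan and among those that spend dolichol-phosphate-mannose. Of 14 measured genes that assemble the lipid-linked glycan, 9 had a higher and 5 a lower +DOX mean, with a median difference of 0.07 (0.05 without -DOX replicate 3). The groups did not overlap for 4 of the 14 with +DOX higher (ALG5, ALG8, ALG13 and ALG14, the last named after its values were seen), beside 7.55% of all probe sets, and for 1 with +DOX lower (DPAGT1), beside 8.26%. ALG13, which helps to add the second N-acetylglucosamine, averaged 8.40 ± 0.04 on +DOX arrays and 8.16 ± 0.16 on -DOX arrays (SD, n = 3 each), a difference of 0.24 (SE 0.09; limma, adjusted p = 0.570). ALG8, a glucosyltransferase, differed by 0.18, and ALG11, a mannosyltransferase, by 0.60 (SE 0.25) with overlapping groups. ALG11 read 7.81, 8.22 and 7.21 on +DOX arrays, against 7.13, 7.07 and 7.26 on -DOX arrays. Its difference thus came from +DOX replicates 1 and 2, and its other values lay below the array medians. ALG14, the partner of ALG13, differed by 0.44, and by 0.18 without -DOX replicate 3. Without that array ALG13 was at 0.15, ALG8 at 0.10 and ALG11 at 0.65. DPAGT1, which puts the first sugar on dolichol, read 9.77, 9.85 and 9.74 on +DOX arrays, against 9.98, 9.88 and 9.86 on -DOX arrays, a difference of -0.12 (SE 0.05; limma, adjusted p = 0.669) that was -0.14 without -DOX replicate 3. ALG5, which makes the companion donor dolichol-phosphate-glucose, read 10.40, 10.48 and 10.41 on +DOX arrays, against 10.29, 10.34 and 9.70 on -DOX arrays. Its difference of 0.32 was 0.12 without -DOX replicate 3, on which it deviated by -0.68, between DPM1 and DAD1.

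Supply of GDP-mannose, the substrate of the DPM synthase, was measured by 5 genes, 4 with a higher and 1 with a lower +DOX mean and a median of 0.15 that was 0.02 without -DOX replicate 3. The phosphomannomutase genes PMM1 and PMM2 were at 0.33 and -0.10, the GDP-mannose pyrophosphorylase genes GMPPA and GMPPB at 0.17 and 0.15, and MPI, which makes mannose 6-phosphate, at 0.09. Without that array these were 0.11, 0.0016, 0.05, 0.02 and -0.0061. All 5 had overlapping groups.

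Of 7 measured mannosyltransferase genes that spend dolichol-phosphate-mannose, 3 had a higher and 4 a lower +DOX mean, with a median of -0.19 (-0.06 without -DOX replicate 3, and 2 higher and 5 lower). POMT1 and POMT2, which together start O-mannose chains, were lower on all +DOX arrays than on any -DOX array, 2 of the 7 genes beside the 8.26% given above, and 0 of the 7 were separated the other way. POMT1 read 8.41, 8.32 and 8.48 on +DOX arrays, against 8.71, 8.52 and 8.67 on -DOX arrays, a difference of -0.23 (SE 0.07; limma, adjusted p = 0.477) that was -0.21 without -DOX replicate 3. POMT2 was at -0.23 (SE 0.08; limma, adjusted p = 0.559), and at -0.16 without that array. ALG3, which adds the first mannose inside the endoplasmic reticulum, was at 0.22 and PIGB, a mannosyltransferase of GPI anchors, at -0.19, with overlapping groups. Without -DOX replicate 3 ALG3 was at 0.10 and PIGB at -0.08. Of genes that trim or fold the new glycoprotein 3 were measured, all with a lower +DOX mean: CANX at -0.22, UGGT2 at -0.28 and MAN1B1, a mannosidase, at -0.12. CANX and UGGT2 were at -0.01 and -0.08 without that array, and MAN1B1 at -0.18.

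**Figure D4:**
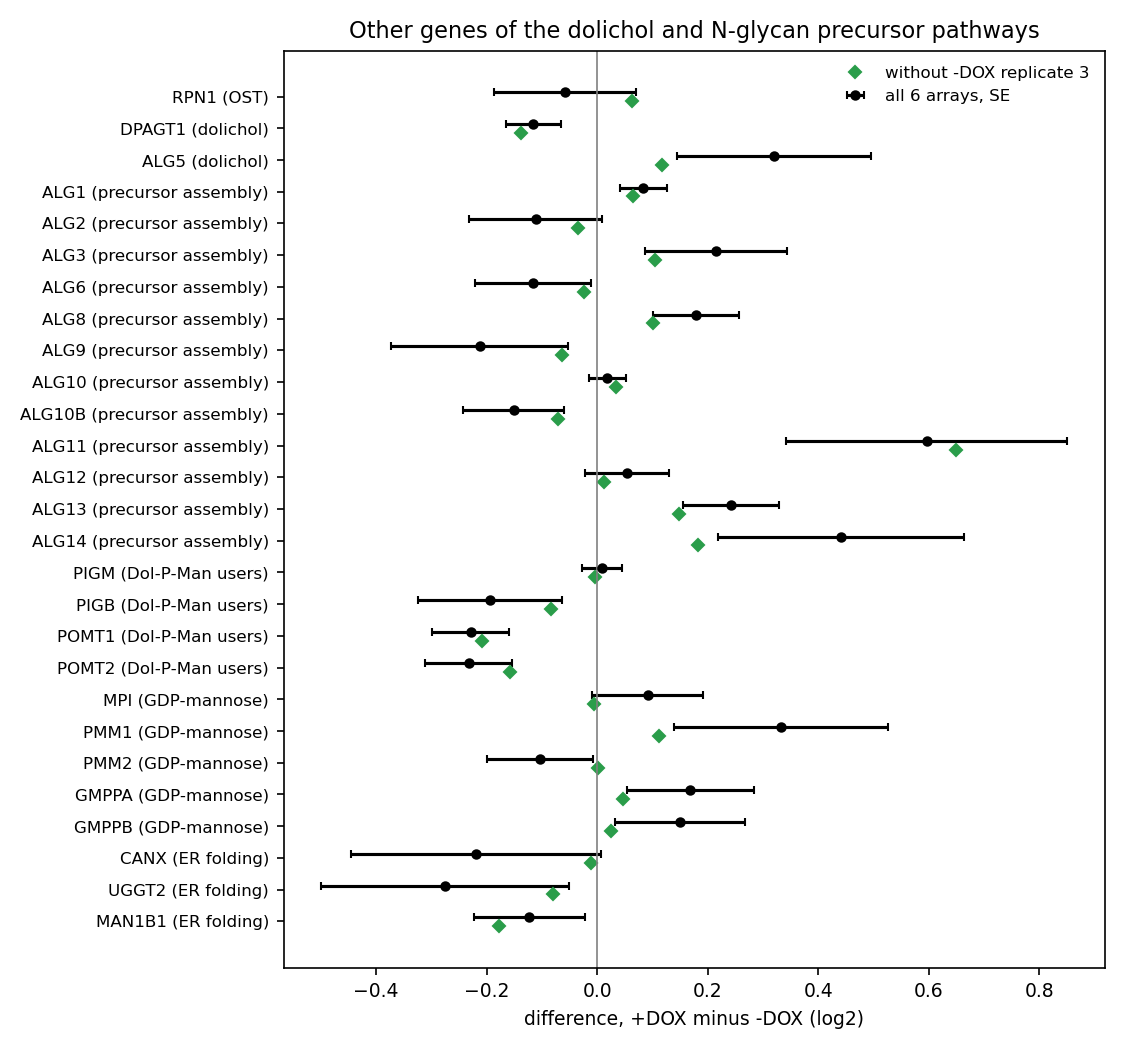
Difference, +DOX minus -DOX, in log2 units for the measured genes of the surrounding pathway, as circles with SE over all 6 arrays and as diamonds without -DOX replicate 3. POMT1, POMT2 and DPAGT1 stay below 0 either way, as do ALG2, ALG6, ALG9, ALG10B, PIGB, CANX, UGGT2 and MAN1B1. ALG5 (0.32 to 0.12) and PMM1 (0.33 to 0.11) move toward 0 without that array.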

How the data were processed

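Total RNA of the 6 samples was labelled and hybridised to single-colour Affymetrix arrays of glycosylation genes, per the labels' protocols. The deposited values are log2 expression per probe set, made by the authors with RMA, per the submitters' processing notes; its version and any later step are not given in the sources used here. Detection calls are absent from the table, and the number of arrays limits the precision. Accessions were matched without version to RefSeq genes of GRCh38.p14, which named 1043 of 1259 probe sets; 1 probe set per gene, the brightest over the 6 arrays, stood for it in lists. The fit of +DOX against -DOX used R 4.3.3 and its package limma 3.58.1 (group means, moderated variance, two-sided, Benjamini-Hochberg over 1259 probe sets). Standard errors and intervals come from that fit. It was also tested on simulated data with independent noise and no array that stood apart. The simulation thus does not cover an array like -DOX replicate 3. The genes, lists and tests were chosen with earlier results of these data known. Named were all probe sets of the 5 genes and all measured genes of the short lists. The short lists were the remaining subunits, the dolichol list (DPAGT1 and ALG5 measured) and GDP-mannose supply. Up to 4 genes with the smallest p in other lists and the 3 nearest genes to each subunit were named as well. DPM2 and the list of translocon and stress genes were not analysed here. The ribosomal list was chosen likewise; of the genes its rule names, RPL37, RPL32 and RPL34 were at 0.17, 0.27 and 0.35 (0.12, 0.13 and 0.14 without -DOX replicate 3), and a further one is not reported here.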

Additional observations from a re-analysis of the deposited data

How the results depend on the processing

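The count of called probe sets was 0 under each alternative tried except array weights, where 1 was called, GAL3ST4 (limma, adjusted p = 0.0378), named after its value was seen; the weight estimation stopped before it reached its tolerance. Leaving out each array in turn gave 0 calls each time, with 45 to 258 probe sets at an unadjusted p under 0.05. The 258 came without -DOX replicate 2. Its array weight was 0.393, beside 0.198 for -DOX replicate 3 and 1.28 to 3.36 for the other arrays. The replicate numbers gave no sign of pairing: deviations from the group mean of same-numbered arrays correlated at -0.15, -0.04 and -0.16. Of 3 +DOX arrays 0 correlated best with their own number. Because -DOX replicate 3 weighs on the mean of its group and so on all -DOX deviations, this check could miss a shared culture. With the replicate number as a block, 0 probe sets were called and 81 had an unadjusted p under 0.05 against 98 without it. The block cannot change a difference in this balanced design. At an unadjusted p under 0.05 the split of 41 higher and 57 lower turned with arrays centred on the median (63 and 44), with a renewed quantile normalization (61 and 51) and without -DOX replicate 1 (52 and 42).

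Leaving out each array in turn, the difference ran between -0.09 and 0.11 for RPN2, 0.05 and 0.13 for the first and 0.03 and 0.09 for the second DDOST probe set, 0.14 and 0.70 for DAD1, 0.07 and 0.31 for DPM1, and 0.18 and 0.78 for DPM3. RPN2 was at 0.02 with centred arrays, and array weights gave 0.25 for DAD1, 0.09 for DPM1 and 0.27 for DPM3. The second DDOST probe set moved by more than its replicate SD, to -0.0049, on renewed quantile normalization. List medians ran between -0.18 and 0.06 for RPN1 alone, 0.05 and 0.10 for precursor assembly, and -0.27 and -0.063 for mannose donor users. They ran between 0.02 and 0.21 for GDP-mannose supply, -0.47 and -0.08 for folding, and -0.01 and 0.14 for ribosomal genes. For all named genes the range was -0.0175 to -0.00059, and the median was 0.0094 with centred arrays. The dolichol list had 2 measured genes, DPAGT1 and ALG5, both also in precursor assembly, and its median ran between -0.01 and 0.16. Its other genes were not analysed here, so the supply of dolichol itself was not measured. Of the nearest genes, 0 or 1 of 3 were shared without -DOX replicate 3; centring the arrays cannot change a distance between genes. The count of ribosomal genes without that array was chosen after seeing the data. The cause of these changes was not tested. Which probe sets lie near background is unknown.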
